A study of Mus musculus with 2 samples.

Results

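A set of 8 genes that mark endocrine cells of the gut wherever they sit along it were followed on 2 arrays, 1 of small intestinal epithelium grafted onto the mouse colon and 1 of normal colonic epithelium. The genes are Chga, Chgb and Scg3 for granule matrix proteins, Pcsk1 for a prohormone-cutting enzyme, Tph1 for serotonin synthesis, and Pax4, Pax6 and Isl1 for transcription factors of the endocrine lineage. They were taken by name, and the brightest probe set annotated to exactly 1 gene symbol stood for each gene. All 8 were measured, out of 17309 named genes. The graft and the colon gave nearly the same deposited value for each of the 8 genes. The median difference, graft minus colon, was -0.023 on the log2 scale, and the single differences lay between -0.20 for Pcsk1 and 0.063 for Isl1. Only Chga and Chgb lay above the median gene value. The other 6 lay below it on both arrays, and the values carry no detection call, so signal and background cannot be separated for dim genes.

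The graft came from small intestinal cells of an EGFP-transgenic mouse of C57BL6 background, cultured for 7 days as organoids, which are epithelial cultures that keep their stem cells, and instilled into the colon of a C57BL6 recipient. It was collected 4 weeks after transplantation. The control was normal colonic epithelium of a C57BL6 mouse that received no graft, per the labels. Both epithelia were cut out by laser microdissection, several sections of a specimen were combined, and the 1 graft and 1 colon specimen with the best RNA integrity were chosen for the arrays. The sources used here do not give the age of the mice or the promoter of the EGFP transgene. With 1 array per group no difference has a replicate check, no test of the condition was possible, and every value describes these 2 specimens. No ungrafted small intestine was analysed here.

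Enteroendocrine cells are the scattered hormone-producing cells of the gut epithelium. They descend from crypt stem cells through a progenitor that expresses the transcription factor Neurog3, and they store peptide hormones or serotonin in dense-core granules. Granins such as chromogranin A and B fill these granules, convertases cut the prohormones inside them, and a calcium-triggered release machinery shared with neurons empties them. Which hormone a cell makes differs along the gut, whereas granins and the lineage factors are shared by many endocrine subtypes.

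The deposited values are log2 levels of single probe sets, with medians of 5.44 on the graft array and 5.43 on the colon array. Genes counted as measurable were those with at least 1 value of 5.48 or more, which is the median over all genes, and there were 9394. Among them 333 (3.54%) were higher in the graft by 2-fold or more, 533 (5.67%) were lower by as much, and 9.22% were at least 2-fold apart in either direction. The only error at hand is the disagreement between different probe sets of 1 gene, which corresponds to an SD of 0.34 for the difference shown by 1 probe set (586 genes with both probe sets at the median level) and 0.15 where both probe sets were below it (169 genes). This error leaves out variation between animals. Each of the 8 endocrine genes has a single probe set, so none can be checked against a second one. Of 15 general epithelial genes, 0 were 2-fold apart, against 9.22% of all measurable genes. By 1.5-fold or more 4 were higher and 1 was lower, against 23.0% of all measurable genes apart in either direction. These 15 genes are too few to tell from either share. The median difference of the 15 epithelial genes was 0.36, higher in the graft by more than any of the 8 endocrine genes. Measured against that median, all 8 differences were negative, with -0.51 for Chga and -0.42 for Chgb, and 0 were 2-fold apart. The median of all genes was shifted to -0.36. The negative sign of all 8 follows from the subtraction, since none of their differences exceeded 0.063. All 15 epithelial genes reached the median level and 6 of the 8 did not, so the shift need not apply to those 6.

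Chgb and Chga were the 2 members above the median level. Chgb, the gene for chromogranin B, measured 7.40 in the graft against 7.46 in the colon, which placed it at percentiles 88.4 and 87.5 of the gene values of these arrays. Its difference was -0.057, a 1.04-fold lower level in the graft, and turned to 0.021 after quantile normalization. Chga, the gene for chromogranin A, measured 6.37 in the graft against 6.51 in the colon, a difference of -0.15 or 1.11-fold. Both differences were smaller than the probe set SD of 0.34, and the direction for Chgb depended on the normalization. Of the 9394 measurable genes, 70.1% differed more than Chga and 85.6% differed more than Chgb. Neither of these 2 measurable members was 2-fold apart, against the 9.22% of all measurable genes, and a share of 2 genes is too small to set against that background. In RNA from a whole epithelium, fewer endocrine cells and less RNA per cell cannot be told apart, whether levels are equal or not.

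Scg3 encodes secretogranin III, a granin that binds chromogranin A and helps to sort it into granules. It measured 4.73 in the graft against 4.76 in the colon, below the 20th percentile of both arrays (4.79 and 4.77). Pcsk1 encodes prohormone convertase 1, which cuts proglucagon and other prohormones. It measured 4.88 in the graft against 5.09 in the colon, and its difference of -0.20 was the largest in size of the 8. This is more than the SD of 0.15 for probe sets below the median level, and 84.6% of genes below that level differed by no more. The Pcsk1 difference rests on values that are shared by many other probe sets. Exactly the same graft value was listed for 103 other probe sets, the largest group of equal values on that array, and the same colon value for 17 others. Tph1, the rate-limiting enzyme of serotonin synthesis in enterochromaffin cells, measured 5.36 in the graft against 5.37 in the colon, a difference of -0.015. It lay just under the median level, and the gap between the arrays was a small part of the probe set SD.

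The lineage factors lay near the lower end of both arrays. Pax4, a paired-homeodomain factor that acts downstream of Neurog3 in endocrine progenitors, measured 5.04 in the graft against 5.03 in the colon, 0.0062 apart, and this direction turned to -0.0081 after quantile normalization. Pax6, its relative that is needed for cells making Gip and proglucagon, had the identical value of 4.77 on both arrays, below the 20th percentile of each. Exactly equal values were common at this level: they were found for 22.4% of genes below the median level and for 4.35% of genes that reached it. Isl1, a LIM-homeodomain factor of several endocrine subtypes, measured 4.89 in the graft against 4.82 in the colon, the larger of the 2 positive differences at 0.063. Its colon value was shared with 39 other probe sets. Among the 8 genes, 5 had a negative difference, 2 a positive one and 1 a difference of exactly 0. The median size of their differences, 0.044, was below the 0.28 of measurable genes and close to the 0.060 of genes below the median level, where 6 of the 8 lay.

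**Figure D1:**
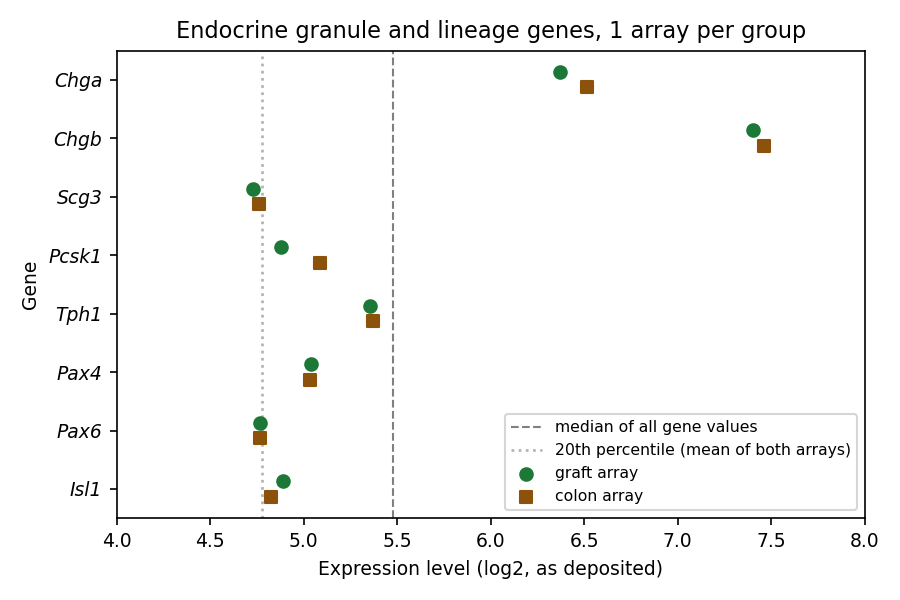
Log2 expression level (horizontal axis) of the 8 genes (vertical axis) on the graft array (circles) and the colon array (squares), 1 array per group, with the median of all gene values as a dashed line and the 20th percentile as a dotted line. Chgb at 7.40 and 7.46 and Chga at 6.37 and 6.51 lie to the right of the median level of 5.48, and the other 6 genes lie to its left on both arrays.

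Most genes of the wider granule set, which includes Chga, Chgb, Scg3 and Pcsk1, had small differences. Of its differences 11 were negative, those of these members among them, 4 were positive and 2 exactly 0. Of 18 genes for granule cargo and prohormone processing, 17 had a probe set of their own and 9 reached the median level. Of these 9, 1 was at least 2-fold higher and 1 at least 2-fold lower, against 3.54% and 5.67% of all measurable genes, and the median difference of the 17 was -0.057, against 0 for all genes. Pam, which amidates the ends of peptide hormones, measured 6.68 in the graft against 8.85 in the colon, 4.51-fold lower. Cpe, the carboxypeptidase that trims peptides after convertase cleavage, measured 7.69 in the graft against 6.40 in the colon, 2.44-fold higher. Both enzymes act after Pcsk1 in peptide maturation, and the 2 values lay on opposite sides of 0. Neither is restricted to endocrine cells, and the cells that carried the signal were not measured. Resp18, a granule-associated protein, measured 4.86 against 5.69, a difference of -0.83, with only its colon value above the median level. The granins and granin-like genes beside the 8 were closer. Scg5 had a difference of -0.13 and Pcsk1n of -0.30. Scg2, with a difference of -0.36, and Vgf, at 4.86 and 4.81, lay under the median level on both arrays.

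Genes of the release machinery had small differences of both signs. Of 24 genes, 22 were measured and 9 reached the median level, of which 0 were 2-fold apart against 9.22% of all measurable genes, too few genes to tell from that share. The median difference was -0.050, with 12 negative, 7 positive and 3 exactly 0. The calcium sensor Syt7 measured 5.25 in the graft against 5.93 in the colon, a difference of -0.68. Only its colon value was above the median level. The active-zone gene Rims2, under the median level on both arrays, and the SNARE gene Snap25 had differences of -0.47 and -0.44. In the other direction Cplx1 and Syt4, also under the median level on both arrays, had differences of 0.43 and 0.20. Stx1a, above that level in the graft only, had a difference of 0.17. Snap25 measured 5.17 in the graft against 5.62 in the colon, so only its colon value was above the median level.

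Most endocrine lineage factors besides the 3 members were also dim. Of 26 genes, Pax4, Pax6 and Isl1 among them, 22 were measured and only 3 reached the median level. Of these 3, 0 were 2-fold apart against 9.22% of all measurable genes, too few genes to tell from that share. The median difference over the 22 was 0. Sox4, which acts in early endocrine progenitors and in other crypt cells, measured 6.25 in the graft against 5.39 in the colon, a difference of 0.86. Foxa2 measured 5.41 against 6.22, a difference of -0.81, and its relative Foxa1 was at 6.10 and 6.23. Sox4 reached the median level in the graft only and Foxa2 in the colon only. Prox1 had a difference of 0.40 at levels under the median. Neurog3, the factor that starts the lineage, was at 5.03 and 4.94, and its target Neurod1 at 4.50 and 4.68, the latter below the 20th percentile on both arrays. Insm1 and Nkx2-2 each had identical values on both arrays, like Pax6. As a gauge of how such values look where little transcript is known in gut epithelium, 16 other Pax and LIM-homeodomain genes were listed. None of them reached the median level, 7 had exactly equal values, and their differences ran from -0.024 for Pax9 to 0.14 for Pax8. The differences of Pax4, Pax6 and Isl1 fall inside that range.

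Genes of the serotonin pathway other than Tph1 had differences of both signs. Of 16 genes for serotonin handling and enterochromaffin cells, Tph1 among them, 13 were measured and 6 reached the median level. Of these 6, 1 was at least 2-fold higher and 2 were at least 2-fold lower, against 3.54% and 5.67% of all measurable genes, with a median difference of -0.061 over the 13. Maoa, which degrades serotonin and is widely expressed in epithelium, measured 6.68 in the graft against 9.75 in the colon, 8.37-fold lower. Gch1, which supplies the pterin cofactor of tryptophan hydroxylase, measured 7.37 in the graft against 5.95 in the colon, 2.68-fold higher. Tac1, the substance P precursor found in many enterochromaffin cells, measured 5.53 against 6.55, 2.02-fold lower, with a log2 difference of -0.98 after quantile normalization, short of 2-fold. Ddc, the decarboxylase that completes serotonin synthesis, was 1.91-fold lower at 5.97 against 6.90. Reg4, a secreted lectin also found in other secretory cells, measured 10.38 against 9.97, a difference of 0.41. The vesicular transporter Slc18a1, which loads serotonin into granules, stayed under the median level at 5.17 and 5.05.

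Several hormone genes differed by more than 2-fold on the same arrays on which Chga and Chgb differed little. Of 16 hormone genes, 15 were measured and 10 reached the median level. Of these 10, 5 were higher in the graft by 2-fold or more and 4 were lower by as much, against 3.54% and 5.67% of all measurable genes, with a median difference of 0.049 over the 15. Gip measured 8.12 in the graft against 5.37 in the colon, Ghrl at 7.58 and 5.71, Cck at 6.21 and 4.79, Penk at 6.04 and 4.80, and Sst at 7.51 and 6.31. In the other direction, Insl5 measured 4.78 in the graft against 8.34 in the colon, Pyy at 6.25 and 9.71, and Gcg at 5.20 and 8.47, beside Tac1. Sct, the hormone gene shared by many endocrine subtypes, was at 6.48 and 6.41, a difference of 0.069. Insl5, Gcg, Gip, Cck and Penk counted as measurable through 1 array only, and Insl5 lay below the 20th percentile in the graft, so their differences are minimum estimates. Nts, Gast and Nmu lay under the median level on both arrays, with differences of -0.0036, 0.080 and 0.049. Since 6 of the 8 endocrine genes were dim on both arrays, the spread of the hormones cannot be compared with theirs, and only Chga and Chgb were measurable beside them. The difference between these groups was not tested, since 1 array per group allows none.

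**Figure D2:**
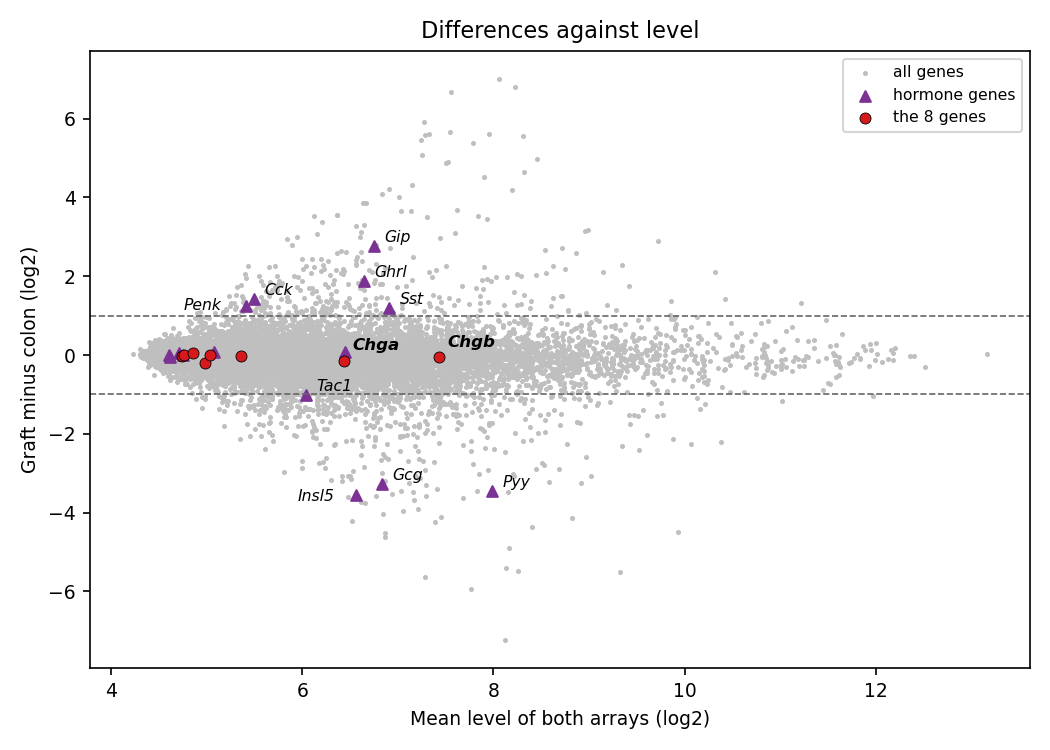
Difference between graft and colon (log2, vertical axis) against the mean level of both arrays (log2, horizontal axis), 1 point per gene, with 17309 genes in grey, 15 hormone genes as triangles and the 8 endocrine genes as circles. Chga and Chgb lie at -0.15 and -0.057 between the dashed 2-fold lines, while Gip reaches 2.76 and Insl5 -3.55, the latter from a graft value near the lower end.

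Receptors and channels of endocrine sensing were mostly too dim to compare. Of 20 genes, 17 were measured and 3 reached the median level. Ffar4, a receptor for long-chain fatty acids, measured 4.96 in the graft against 6.25 in the colon. Its difference of -1.29 is a minimum estimate, because the graft value lay under the median level. Ffar4 was the only one of the 3 that was 2-fold apart, against 9.22% of all measurable genes, and 3 genes are too few to set against that share. Ffar2, a receptor for short-chain fatty acids that reached the median level in the graft only, had a difference of 0.61. Ffar3, under that level on both arrays, had one of 0.37. Fatty acid receptors are also found outside endocrine cells.

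Markers of other cells that express some of the 8 genes were low on both arrays. Chga, Chgb and Scg3 are also neuronal genes, and Tph1 is also a mast cell gene. Of 12 measured genes of enteric neurons and glia, 0 reached the median level, with a median difference of 0 and a range from -0.082 for Uchl1 to 0.42 for Sox10. Ret and S100b had differences of 0.27 and 0.15. Of 8 measured mast cell genes, only Kit reached the median level, at 6.14 and 6.49. The mast cell proteases Mcpt1, Mcpt2, Tpsb2, Tpsab1 and Cma1 lay below the 20th percentile on both arrays, and Hdc and Gata2 had differences of 0.29 and 0.19. Markers of other secretory lineages were read from the same arrays, on which 3.54% of measurable genes were 2-fold higher and 5.67% were 2-fold lower. Of 8 measurable tuft cell genes 7 were higher by 2-fold or more in the graft, and of 8 measurable Paneth cell genes 5 were. Most of these 7 and all of these 5 counted as measurable through the graft array only. The filter therefore favoured genes high in the graft, and these counts cannot be set against the 3.54%. Of 9 measurable goblet cell genes, 3 were at least 2-fold lower and 0 higher, with a list median of -0.043. Among 13 genes of secretory fate, 9 reached the median level and 2 of these were at least 2-fold lower, Atoh1, which specifies all secretory lineages, at 7.47 in the graft against 8.49 in the colon and Hes1, a Notch target that opposes secretory fate, at 6.94 against 8.14. Atoh1 had a difference of -1.02, and of -0.96 after quantile normalization, short of 2-fold. The part of these cell types in the values of the 8 genes was not tested.

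**Figure D3:**
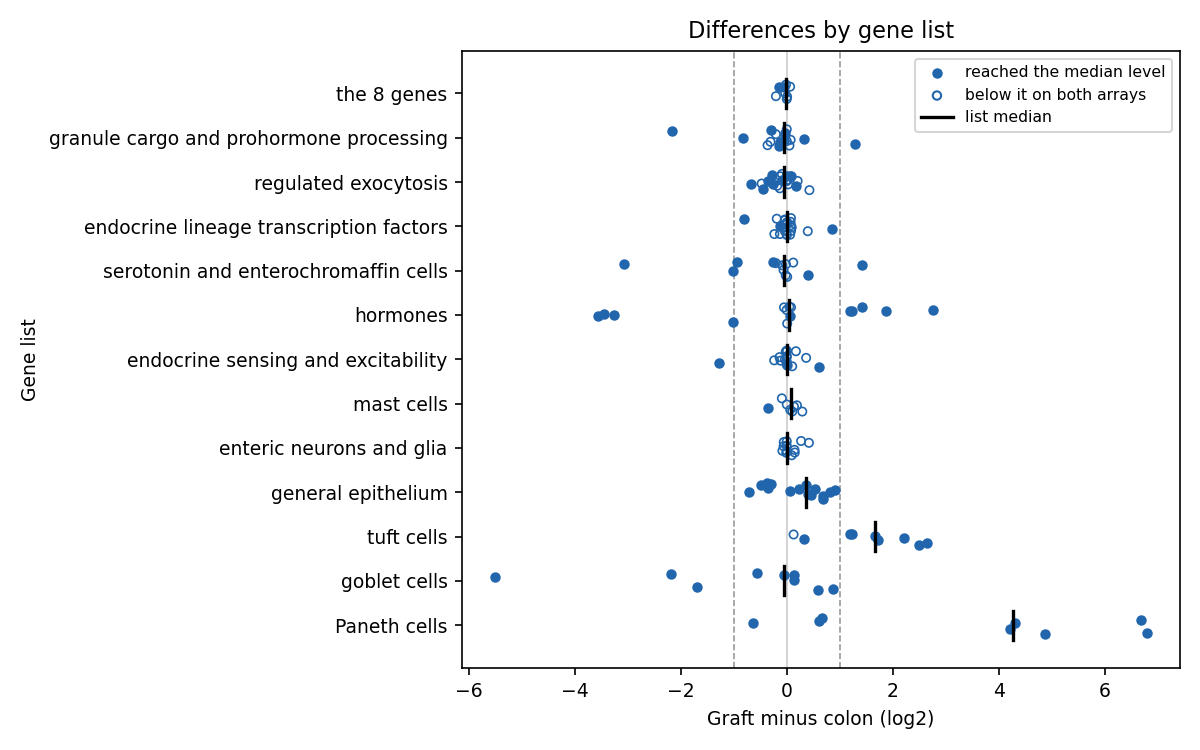
Difference between graft and colon (log2, horizontal axis) for each measured gene of 13 lists (vertical axis), filled where the gene reached the median level and open where it did not and differences are compressed, with the list median as a black bar and dashed lines at 2-fold. The 8 endocrine genes cluster at 0, the 15 hormone genes spread from -3.55 to 2.76, and the 9 tuft cell genes all lie above 0.

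The promoters of the 8 genes were read for a motif that the choice of genes did not use. The motif is already known from chromogranin promoters, so its letters in Chga and Chgb are no independent observation. Chromogranin promoters are a textbook case of control through the cAMP response element, an 8-letter palindrome, TGACGTCA, that binds CREB-family factors, whose core is TGACG. RefSeq promoter windows of GRCm38.p6, from 250 bases before to 50 bases after an annotated start, matched 7 of the 8 genes with 9 windows. Pax4 was not matched. The full element was found in Chgb, Pcsk1 and Pax6, and in 3 of the 9 windows, against 1.79% of all 32851 windows. The core on either strand, which the full element also contains, was found in all 9 windows and all 7 genes, against 20.8% of all windows and 23.0% of all 27025 genes. The core contains a CG dinucleotide, and the member windows are rich in it, with a median of 18 CG dinucleotides against 7 for all windows. Among the 9764 windows with 18 or more, 35.7% held the core and 3.72% the full element. One stretch per gene is shown, in the direction of transcription, because these are the letters that the 7 genes have in common. Capitals mark the full element in Chgb, Pcsk1 and Pax6 and, in the others, the core in the direction of transcription nearest the start. Further cores in the stretches of Pcsk1, Tph1 and Isl1 are left in lower case and appear in the plot of positions.
Chgb, chr2:132781542-132781605, + strand: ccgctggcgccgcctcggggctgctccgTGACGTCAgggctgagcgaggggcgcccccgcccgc
Chga, chr12:102554869-102554929, + strand: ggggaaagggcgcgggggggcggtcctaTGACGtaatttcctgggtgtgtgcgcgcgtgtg
Scg3, chr9:75684057-75684114, - strand: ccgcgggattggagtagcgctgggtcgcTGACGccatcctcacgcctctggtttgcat
Pcsk1, chr13:75089751-75089814, + strand: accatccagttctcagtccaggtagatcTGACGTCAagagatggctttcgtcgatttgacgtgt
Tph1, chr7:46667392-46667452, - strand: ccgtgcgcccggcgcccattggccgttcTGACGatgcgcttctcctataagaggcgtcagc
Pax6, chr2:105668792-105668855, + strand: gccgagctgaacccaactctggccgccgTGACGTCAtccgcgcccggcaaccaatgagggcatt
Isl1, chr13:116309715-116309775, - strand: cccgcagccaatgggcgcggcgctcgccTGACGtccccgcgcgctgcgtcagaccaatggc

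In these stretches the capitals begin between 30 bases (Scg3) and 78 bases (Pcsk1) upstream of the annotated start. For the cores this nearness partly follows from the choice of the one nearest the start. Other cores lay farther off, at 248 bases in Tph1 and 187 bases at the second start of Pax6. The 3 full elements sit close together, at 72 bases in Chgb, 76 in Pax6 and 78 in Pcsk1, and the core in Chga sits at 44. Levels of different probe sets cannot be set against each other, so the letters were not compared with expression. In related lists, the full element was found in 3 of 14 matched granule cargo genes (Chgb, Pcsk1 and Scg2), in 1 of 20 lineage factors (Pax6), in 1 of 14 hormone genes (Sst) and in 0 of 16 genes of the release machinery. The core was found in 8 of the 14 granule cargo genes and in 5 of the 20 lineage factors. It was also in 5 of the 14 hormone genes and 7 of the 16 release genes, against 23.0% of all genes. The granule list includes Chga, Chgb, Scg3 and Pcsk1, and the lineage list Pax6 and Isl1. Their counts therefore repeat part of the 7 genes. A match of letters is a description and no evidence of binding, no factor was measured, and the motif was chosen with earlier results of these data known.

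**Figure D4:**
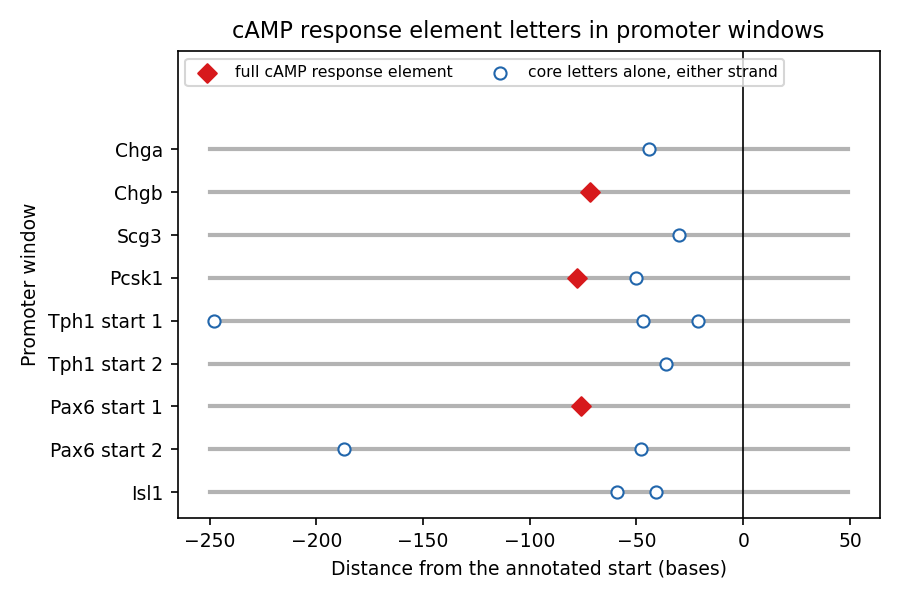
Positions of the cAMP response element (diamonds) and of its core letters alone on either strand (open circles) in the 9 promoter windows of 7 genes (vertical axis), by distance from the annotated start in bases (horizontal axis), with Pax6 and Tph1 shown for 2 starts each. Each window holds at least 1 symbol, and the 3 diamonds lie between 72 and 78 bases upstream.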

How the data were processed

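RNA of 1 graft and 1 colon specimen, 4.33 ng each, was amplified as whole-transcriptome cDNA and labelled with biotin, per the labels' protocols. The authors deposited a table of log2 levels, with 24074 probe sets as rows and the arrays as columns. The log2 scale was read from the range of the values, 4.19 to 13.46. The sources used here do not give the software, background correction or normalization. The sorted columns differed by at most 0.25, genes had not been centred over the 2 arrays, and whether arrays had been centred stays unknown.

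Names came from the platform's annotation, with 1 symbol for 18908 probe sets, several for 1326 and none for 3840. Only the first kind was used. The 8 genes and the 14 further gene lists were chosen with earlier results of these data known. All 8 members were named, with every list member at least 2-fold apart and others up to 3 per list. Tuft, goblet and Paneth cell and general epithelial genes are given as counts. The genes otherwise named below 2-fold were chosen after their values were seen. Differences are graft minus colon, without further normalization, and no test was possible. Alternatives covered the probe set per gene, the normalization, the filter and the fold threshold. Counting was tested on simulated data. Python 3.11.15, pandas 2.3.3 and NumPy 2.4.6 were used.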

Additional observations from a re-analysis of the deposited data

How the results depend on the processing

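None of the 8 endocrine genes was 2-fold apart under any alternative run, but most runs could not change their values. Each gene has a single probe set and none with several symbols. The mean of all probe sets and the use of probe sets with several symbols therefore left the 8 as they were. Median centring subtracted 0. The 2 other filters and a 1.5-fold threshold change only which genes are counted. Only quantile normalization and centring on general epithelial genes altered the 8 values. Without that centring their differences stayed between -0.22 and 0.063, and none moved by more than 0.078, which is under the probe set SD. Quantile normalization turned Chgb to 0.021 and Pax4 to -0.0081 and gave Pax6 a difference of -0.020. None of the 8 had a second probe set named for it alone, so that alternative gave them no value. Leaving out a replicate was not possible with 1 array per group.

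The share of all counted genes at least 2-fold apart was 6.11% with the second brightest probe set, 5.01% with no filter, 14.3% with a filter at the 75th percentile and 23.0% at 1.5-fold. With the stricter filter 3 hormone genes were 2-fold higher and 0 sensing genes lower. With quantile normalization 1 serotonin pathway gene was 2-fold lower. At 1.5-fold, 2 granule cargo genes and 1 release gene were lower, 1 lineage factor was higher and 1 lower, and 1 sensing gene was higher. Centring on the median of general epithelial genes, chosen after seeing the data, took the 8 differences to -0.51 for Chga, -0.42 for Chgb, -0.39 for Scg3, -0.57 for Pcsk1, -0.38 for Tph1, -0.36 for Pax4 and Pax6 and -0.30 for Isl1, with a median of -0.39. It made 15.1% of counted genes 2-fold apart, 198 higher and 1225 lower in place of 333 and 533. The negative sign of all 8 follows from the shift of 0.36, since none of their differences before it exceeded 0.063. Of all 322 alternative values, 28 moved beyond the probe set SD or, for a count or share, by over 1.5 times. The 322 include the median centring values, which could not move because the shift was 0. A turn of direction was looked for only in Tac1, Atoh1 and the medians of the tuft and Paneth cell lists, and 0 turned. Other genes at least 2-fold apart, such as Gip, Insl5 and Pam, were not valued again singly, so the stability of their direction was not tested. The number of arrays limits the precision throughout.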

Other observations

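Exactly repeated values were frequent in the deposited table. On the graft array 24074 probe sets carried 19466 distinct values, and 21.8% of probe sets shared their value with another. On the colon array 20.3% did. The largest group on the graft array held 104 probe sets, that of Pcsk1 among them. Chga, Chgb, Tph1 and Pax4 had values found in no other probe set of the same array.

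Both arrays had the same value for 2910 probe sets, 12.1% of the table. Pax6 was the only one of the 8 endocrine genes among them.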
